A study of Mus musculus with 2 samples.

Results

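The genes described here are 48 developmental transcription factor genes of the T-box (9 genes), Gata (2), forkhead (13), Sox (9) and basic helix-loop-helix (bHLH, 15) families. They were chosen by name and with earlier results of these data known. A probe set was taken for a gene where the platform annotation gave that gene as its single symbol. On this array a gene is read by probe sets, each a few short probes that together give 1 signal. Of the 48 genes 47 had at least 1 probe set of their own, and they held 83 of the 34945 probe sets with a single symbol, which stood for 18193 genes in all. Foxe1 had none and is named only.

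The study measured RNA from mouse embryonic stem (ES) cells labelled as an Eed knockout (Eed KO), which the submitters' design text calls constitutive, and from cells labelled as its control, with 1 Affymetrix MOE430 2.0 array for each. Eed belongs to the core of Polycomb repressive complex 2, which methylates histone H3. The labels do not give the parent line, the way the gene was disrupted, or whether feeder cells were present, and they describe no clone, promoter or Cre. As each group was 1 array there is no replicate, so no difference below has a test, an SD or a p-value.

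T-box, Gata, forkhead, Sox and bHLH proteins bind DNA and direct the choice of cell type in the embryo, each family through its own DNA-binding domain. In undifferentiated ES cells most of their lineage genes are kept silent, and many carry the histone mark of Polycomb repressive complex 2, trimethylated lysine 27 of histone H3. The comparison asks which of them differ in signal when a core subunit of that complex is knocked out.

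Most of these genes had little signal on either array, and few differed by as much as 2-fold. Tbx15, Tbx18, Foxc2, Foxd1 and Foxq1 were at least 2-fold higher in Eed KO cells and Foxf1 was at least 2-fold lower. Tbx18, Foxd1 and Foxq1 were under 2-fold after quantile, equal-median or lowess scaling, and the other Foxf1 probe set was 1.79-fold higher. The 5 higher genes made up 10.6% of the 47, against 8.15% of all 18193 genes, and the 1 lower gene made up 2.13%, against 2.48% of all genes. These shares are close to the background, so the counts are not a result about these families. For the 3 of the 5 that were under the floor in the control (Tbx15, Foxc2 and Foxd1), higher was the only direction a call could take.

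A floor of 61.3, the 40th percentile of all signals of both arrays together, was used as the level below which a signal was not read as a level. Signals under it were set to it before a ratio was taken, so a ratio against such a signal is a lower bound and is written "at least". Each gene was represented by its main probe set, the one with the highest mean log2 signal. Of the 47 genes 21 (44.7%) were under the floor on both arrays, against 24.2% of all genes. Among the 10241 genes whose mean log2 signal did not exceed the highest of the 47, here called equally dim, it was 43.0%. The signals of the 47 main probe sets had a median of 65.6 and a maximum of 384.9 in the Eed KO, and a median of 41.8 and a maximum of 246.2 in the control. A further 7 genes (14.9%, against 8.23% of all genes) cleared the floor on the Eed KO array alone, and 2 (4.26%, against 2.65%) on the control array alone. Of the 10241 equally dim genes 1497 cleared it on the Eed KO array alone and 482 on the control array alone. The other 17 were above it on both arrays, and 14 of these had a ratio above 1 as deposited. So did 2648 of the 3863 equally dim genes above it on both arrays, and 6629 of 11815 among all genes.

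**Figure D1:**
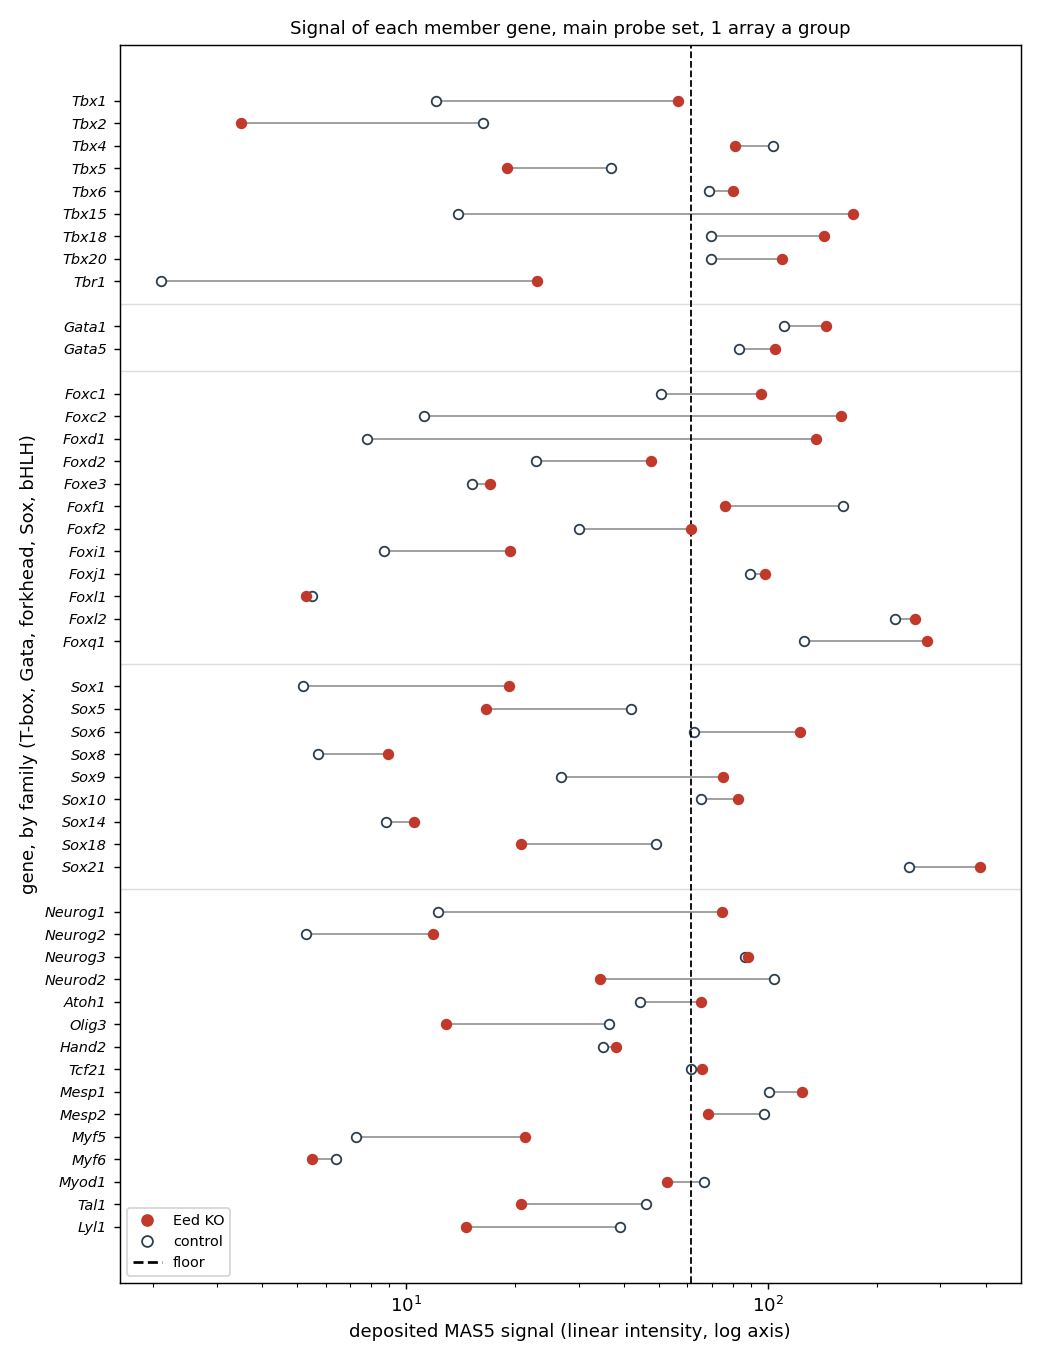
Deposited MAS5 signal (linear intensity on a log axis) of the main probe set of each of the 47 genes, grouped by family from T-box at the top to bHLH at the bottom, with 1 point for the Eed KO array (filled) and 1 for the control array (open) and the floor of 61.3 as a dashed line. Of the 47 genes 21 lie at or left of the floor on both arrays, and the highest signals are those of Sox21 at 384.9 in the Eed KO and 246.2 in the control.

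Dim probe sets were higher on the Eed KO array across the whole platform, and the 47 genes are dim. The median deposited signal over all probe sets was 108.1 in the Eed KO and 87.4 in the control. Among the 10241 genes whose mean log2 signal did not exceed the highest of the 47 genes, 8.95% passed 2-fold upward and 1.58% downward in the Eed KO. Among the 3863 of them above the floor on both arrays, 15.6% passed it upward and 2.9% downward. Of the 17 such genes described here, Tbx18 and Foxq1 did so upward and Foxf1 downward. The median log2 ratio of the 26 genes above the floor on at least 1 array was 0.30, beside 0.31 for the equally dim genes above it and 0.12 for all genes above it. For 9 of the 26 the direction was fixed, since they were above the floor on 1 array only. Below the floor the share also lay near that of all probe sets. Of the 49 probe sets of these genes that were under it on both arrays, 29 had the higher deposited signal in the Eed KO (59.2%), against 59.5% of all such probe sets.

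In bulk RNA fewer cells of a type and less RNA per cell cannot be told apart, so marker lists were read on the same arrays. All 12 ES cell markers were above the floor on both arrays, with a summed signal of 101076 in the Eed KO and 102634 in the control, which matches the ES cell label. Their ratios were below 1 for 8 and above 1 for 4. Only Dppa4 passed 2-fold, at 3128.6 in the Eed KO and 7304.0 in the control (1 to 3 markers lower under the other scalings). Of 23 fibroblast markers 17 passed 2-fold upward in the Eed KO and 0 downward (13 to 17 higher under the other scalings). Their summed signal was 46563 in the Eed KO and 19170 in the control, and Lum and Fap were under the floor on both. Of 12 primitive endoderm markers 7 were higher (5 to 7 under the other scalings), with sums of 11326 in the Eed KO and 7217 in the control. Pdgfra is on both this list and the fibroblast list. Of 11 trophoblast markers 4 were higher (2 to 4 under the other scalings, with 0 or 1 lower), with sums of 16110 in the Eed KO and 8822 in the control, and Cdx2 and Tpbpa were under the floor on both arrays. Over all genes 8.15% were higher and 2.48% lower. The marker lists were made with earlier results of these data known, so their shares cannot show an excess. No marker list was lower by sum except that of ES cells, none shares a gene with the 48, and the part of other cells in the values below was not tested. The main Eed probe set read 11456 in the Eed KO and 10101 in the control. The labels do not place the disruption, so this signal does not check them.

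Upstream sequence was at hand for 34 of the 48 genes (70.8%) in the RefSeq promoter table of GRCm38.p6. As this is under 80%, a comparison of promoter composition over the whole set is void and none was made. Among the 5 higher genes Foxd1 and Tbx18 had a window. They are shown with the windows of Sox1 and Myf5, which had the most and the least CpG for their base content among those of these genes that had a window and were under the floor on both arrays. Each sequence is the 250 bases before the RefSeq transcript start, 5′ to 3′ on the gene's strand, with every CpG dinucleotide in capitals, since CpG-dense promoters are those at which Polycomb complexes are known to sit in ES cells.
Foxd1, chr13:98353995-98354244, plus strand: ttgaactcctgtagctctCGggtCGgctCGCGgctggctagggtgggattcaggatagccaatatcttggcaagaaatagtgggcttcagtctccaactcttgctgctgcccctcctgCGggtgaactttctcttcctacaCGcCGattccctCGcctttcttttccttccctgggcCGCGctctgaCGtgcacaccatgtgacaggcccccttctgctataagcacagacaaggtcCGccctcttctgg
Tbx18, chr9:87731261-87731510, minus strand: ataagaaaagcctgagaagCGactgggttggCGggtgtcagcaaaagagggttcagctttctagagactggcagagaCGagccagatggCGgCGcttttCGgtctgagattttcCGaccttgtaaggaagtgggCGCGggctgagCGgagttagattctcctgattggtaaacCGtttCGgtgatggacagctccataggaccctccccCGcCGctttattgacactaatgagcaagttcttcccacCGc
Sox1, chr8:12395269-12395518, plus strand: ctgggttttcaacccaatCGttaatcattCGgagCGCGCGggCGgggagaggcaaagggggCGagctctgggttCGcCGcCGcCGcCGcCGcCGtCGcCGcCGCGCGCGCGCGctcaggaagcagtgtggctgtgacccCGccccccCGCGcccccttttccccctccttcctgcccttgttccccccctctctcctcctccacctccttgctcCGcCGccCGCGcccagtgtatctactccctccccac
Myf5, chr10:107486135-107486384, minus strand: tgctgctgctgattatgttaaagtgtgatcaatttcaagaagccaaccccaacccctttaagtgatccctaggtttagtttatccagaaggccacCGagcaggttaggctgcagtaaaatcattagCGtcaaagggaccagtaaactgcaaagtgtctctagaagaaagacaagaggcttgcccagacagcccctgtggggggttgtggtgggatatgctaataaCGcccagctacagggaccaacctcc
The 250 bases held 12 CpG for Foxd1, 15 for Tbx18, 29 for Sox1 and 3 for Myf5. Over the full 300-base windows, which add 50 bases after the start, the ratio of CpG observed to that expected from the C and G content was 0.62 for Foxd1, 0.75 for Tbx18, 1.07 for Sox1 and 0.16 for Myf5, beside a median of 0.38 over all 32851 windows in the table. Sox1 read 19.3 in the Eed KO and 5.2 in the control, under the floor on both arrays. As Sox1 was picked for being under the floor and densest in CpG, these windows show nothing about CpG and signal. The letters TATAAA on either strand were in the 300-base Myf5 window, outside the 250 bases printed, and in none of the other 3 windows. Of all windows 13.6% hold them.

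Of 9 T-box genes 2 were higher as deposited, both factors of embryonic mesenchyme, against 8.15% of all genes. Under each of the 5 other scalings 1 of the 9 was, since Tbx18 had log2 ratios of 0.72 to 0.96 there. Tbx15, a factor of dermal and skeletal mesenchyme, read 172.1 in the Eed KO and 13.9 in the control with its main probe set. Its other probe set read 106.4 in the Eed KO and 4.2 in the control. On both probe sets only the Eed KO signal cleared the floor, and the ratios were at least 2.81-fold and at least 1.74-fold. Tbx18, a factor of the epicardium and of somite boundaries, read 142.7 in the Eed KO and 69.7 in the control, a 2.05-fold ratio. Its other probe set read 77.5 in the Eed KO and 15.6 in the control, at least 1.26-fold. The SD of the log2 ratio of a single probe set, taken from pairs of probe sets of the same gene, was 0.52 at these signals, and it holds no biological spread. The fibroblast marker sum was 46563 in the Eed KO and 19170 in the control, and its part in both values was not tested.

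The other T-box genes stayed within 2-fold. Tbx20, a heart factor, read 109.7 in the Eed KO and 69.6 in the control, and its other 2 probe sets also had the higher signal in the Eed KO. Tbx4, the hindlimb factor, read 81.4 in the Eed KO and 103.7 in the control, with its other probe set the other way at 68.6 in the Eed KO and 11.0 in the control. Tbx6, which specifies paraxial mesoderm, read 80.2 in the Eed KO and 69.0 in the control. Its log2 ratio of 0.22 turned below 0 in 3 of the 5 other scalings, down to -0.11. Tbx1 (pharyngeal arches and outflow tract), Tbx2 (atrioventricular canal), Tbx5 (forelimb and heart) and Tbr1 (cortical neurons) were under the floor on both arrays. Tbx5 and the hindlimb factor Tbx4 are close paralogs, and neither had a probe set at 2-fold. Tbx2 and Tbx4 lie next to each other on chromosome 11, and neither passed 2-fold.

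Both Gata members stayed within 2-fold and within the probe set SD of 0.52. Gata1, the master factor of red cell development, read 144.7 in the Eed KO and 110.6 in the control. Gata5, a factor of heart and endoderm, read 104.8 in the Eed KO and 83.4 in the control, with its other probe set under the floor on both arrays. The log2 ratios of 0.39 for Gata1 and 0.33 for Gata5 were as low as 0.08 and 0.01 under other scalings. Gata1 works with Tal1 and Lyl1, related bHLH factors of the blood lineage, neither of which cleared the floor. Tal1 read 20.8 in the Eed KO and 46.0 in the control, and Lyl1 read 14.7 in the Eed KO and 39.0 in the control. Of 8 erythroid target genes of Gata1 and Tal1 with a probe set, 0 reached 2-fold in either direction as deposited, and 1 was lower under each of the 5 other scalings. Of 8 genes of their cofactors and partners 1 was higher (Zfpm2) and 2 were lower (Gfi1b and Runx1), each by at least 2.04- to 2.10-fold, against 8.15% and 2.48% of all genes. Under the other scalings 0 of the 8 were higher and 1 or 2 lower. Both lists were made with earlier results of these data known, so their shares cannot show an excess over all genes.

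Of 12 forkhead genes 3 were higher and 1 lower as deposited, against 8.15% and 2.48% of all genes. Under quantile, equal-median or lowess scaling 1 of the 12 was higher, Foxc2. Foxc2, a factor of lymphatic vessels and paraxial mesoderm, read 159.4 in the Eed KO and 11.2 in the control, at least 2.60-fold. Foxd1, which marks kidney stroma, read 136.0 in the Eed KO and 7.8 in the control, at least 2.22-fold. Each had a single probe set, so neither has a second reading on these arrays. Foxq1, known in the mouse for its role in hair differentiation, read 275.4 in the Eed KO and 126.2 in the control, a 2.18-fold ratio. Its other probe set read 124.0 in the Eed KO and 46.2 in the control, at least 2.02-fold, so both Foxq1 probe sets passed 2-fold in the same direction. Foxq1 was the only 1 of the 5 higher genes for which this held.

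Foxf1, a factor of gut and lung mesenchyme, was called lower, but its probe sets disagreed. The main one read 76.2 in the Eed KO and 161.3 in the control, 2.12-fold lower. The other read 114.9 in the Eed KO and 64.3 in the control, 1.79-fold higher. All 4 signals were above the floor, and the mean of the 2 log2 ratios was -0.12, so no direction can be given for Foxf1. Its paralog Foxf2 was at the floor in the Eed KO at 61.3 and under it in the control at 30.1. Foxc1, the paralog of Foxc2, read 95.6 in the Eed KO and 50.8 in the control, at least 1.56-fold. Foxj1, the factor of motile cilia, read 98.0 in the Eed KO and 89.6 in the control. Foxl2, the granulosa cell factor of the ovary, read 255.8 in the Eed KO and 224.3 in the control. The log2 ratios of Foxj1 (0.13) and Foxl2 (0.19) each turned below 0 in 4 of the 5 other scalings. Foxd2, Foxe3 (lens), Foxi1 (inner ear) and Foxl1 (gut mesenchyme) were under the floor on both arrays.

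**Figure D2:**
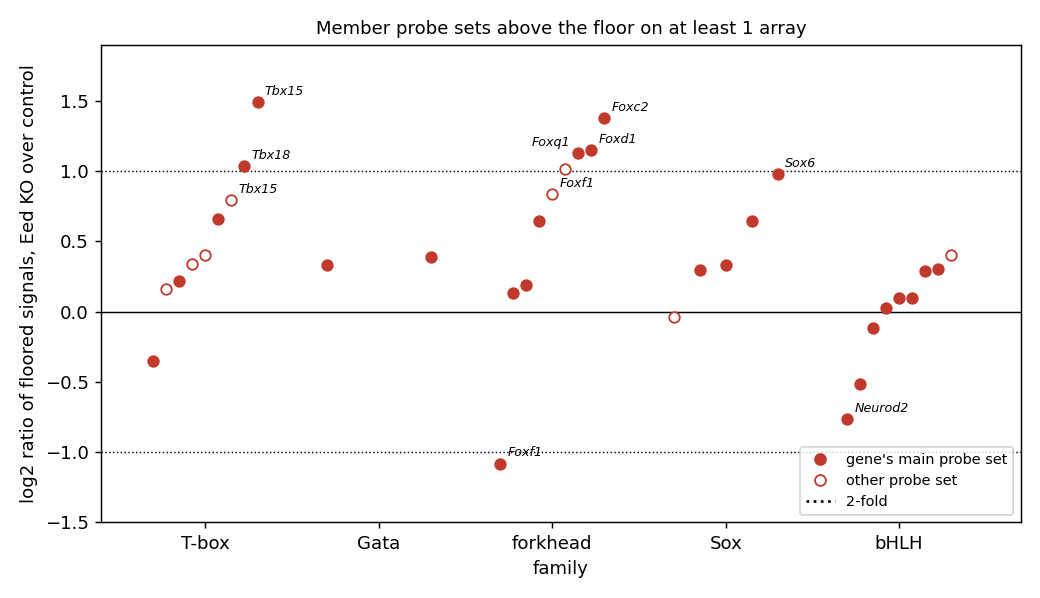
Log2 ratio of floored signals, Eed KO over control, for each probe set of these genes above the floor on at least 1 array, by family, with filled points for a gene's main probe set, open points for its other probe sets and dotted lines at 2-fold. Points past 2-fold are in the T-box and forkhead columns only, and Foxf1 has a probe set on each side of 0, at -1.08 and 0.84.

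Several of the forkhead genes are neighbours in GRCm38.p6. On chromosome 13 Foxq1, Foxf2 and Foxc1 follow each other with 0 other protein-coding genes between them. Foxq1 was 2.18-fold higher in the Eed KO, Foxf2 did not clear the floor on either array, and Foxc1 cleared it in the Eed KO only. On chromosome 8 Foxc2 lies next to Foxl1, with 1 protein-coding gene between it and Foxf1. Foxc2 was at least 2.60-fold higher, while Foxl1 read 5.3 in the Eed KO and 5.5 in the control. Foxd2 and Foxe3, next to each other on chromosome 4, were both under the floor on both arrays.

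No Sox member of 9 reached 2-fold, against 8.15% of all genes higher and 2.48% lower. So few genes would hold hardly any call at those shares, so the count is not a result about the family. With the floor at the 25th percentile 1 of the 9 was higher (Sox9), against 12.3% of all genes. Sox6, a partner of Sox9 in cartilage and also active in red cells and muscle, read 123.1 in the Eed KO and 62.5 in the control, a 1.97-fold ratio just under the limit. Its other 3 probe sets were under the floor on both arrays. Sox21, an antagonist of neural progenitor Sox genes, read 384.9 in the Eed KO and 246.2 in the control with its main probe set, a log2 ratio of 0.64 where the probe set SD is 0.39. Its other probe set read 84.3 in the Eed KO and 86.7 in the control. The second reading of Sox21 therefore did not repeat the difference of the first.

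Sox9, which drives cartilage, read 75.4 in the Eed KO and 26.8 in the control, at least 1.23-fold, and its other 2 probe sets were under the floor on both arrays. Sox10, the neural crest factor, read 82.6 in the Eed KO and 65.5 in the control. Its log2 ratio of 0.33 turned below 0 in 1 of the 5 other scalings. Sox1 (early neural plate), Sox5, Sox8, Sox14 and Sox18 (endothelium) were under the floor on both arrays. All 7 Sox5 probe sets were among those, with 4 higher and 3 lower in the Eed KO, so a gene with many readings gave no common direction below the floor. Sox8, Sox9 and Sox10 form 1 subgroup, and none of their 7 probe sets reached 2-fold. Of 8 cartilage targets of Sox9 0 were at least 2-fold higher or lower, and of 6 glial targets of Sox10 1 was higher. That gene was Mbp, encoding myelin basic protein, at 255.3 in the Eed KO and 69.8 in the control (3.66-fold).

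The 15 bHLH genes likewise held no call in either direction, against 8.15% of all genes higher and 2.48% lower. This count too is not a result about the family. With the floor at the 25th percentile 1 of the 15 was higher (Neurog1) and 1 lower (Neurod2), against 12.3% and 3.76% of all genes. The proneural factors Neurog1, Neurog2 and Neurog3 start neuron formation, Neurog3 in the pancreas the endocrine lineage. Neurog1 read 74.9 in the Eed KO and 12.3 in the control, at least 1.22-fold, with its other probe set under the floor on both arrays at 19.0 in the Eed KO and 40.1 in the control. Neurog2 was under the floor on both arrays. Neurog3 read 88.0 in the Eed KO and 86.5 in the control, and its log2 ratio of 0.02 turned below 0 in all 5 other scalings. Neurod2, a factor of maturing neurons, read 34.3 in the Eed KO and 104.4 in the control, at least 1.70-fold lower. Atoh1, the factor of cerebellar granule cells and inner ear hair cells, read 65.6 in the Eed KO and 44.4 in the control. Olig3 (dorsal spinal cord) was under the floor on both arrays.

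Among targets downstream of the neurogenins and Atoh1, Neurod1, Hes6 and Insm1 were lower in the Eed KO. Of 9 with a probe set 3 were past 2-fold downward in the Eed KO and 0 upward, against 2.48% of all genes lower as deposited. Under the other scalings 3 to 5 were lower. The list was made with earlier results of these data known, so its share cannot show an excess over all genes. Neurod1, a neuronal bHLH factor, read 104.5 in the Eed KO and 813.5 in the control (7.78-fold lower). Hes6, a bHLH factor that promotes neuron formation, read 203.8 in the Eed KO and 1438 in the control (7.05-fold lower). Insm1, a neuroendocrine zinc finger factor, read 29.1 in the Eed KO and 269.9 in the control, at least 4.40-fold lower. These genes have other regulators too, and which factors set their signal was not tested.

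Of the mesodermal bHLH genes, Mesp1, the earliest cardiac mesoderm factor, read 124.4 in the Eed KO and 100.8 in the control. Mesp2, its neighbour on chromosome 7 and a factor of somite segmentation, read 68.4 in the Eed KO and 97.9 in the control. Their log2 ratios were 0.30 for Mesp1, which turned below 0 in 2 of the 5 other scalings, and -0.52 for Mesp2, which was -0.82 to -0.59 in them. The probe set SD at these signals was 0.52. Hand2, a factor of heart and limb, was under the floor with its main probe set, but another probe set read 81.1 in the Eed KO and 3.0 in the control, at least 1.32-fold. Tcf21, a factor of mesenchyme in kidney, lung and epicardium, read 65.9 in the Eed KO and 61.5 in the control, and its log2 ratio of 0.10 turned below 0 in 4 of the 5 other scalings.

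The muscle determination factors Myf5 and Myf6, neighbours on chromosome 10, were under the floor on both arrays. Myod1 read 52.8 in the Eed KO and 66.6 in the control, at least 1.09-fold lower. Of 11 muscle targets of Myod1 and Myf5 1 was higher and 1 lower. The higher one was Des, encoding the muscle intermediate filament desmin (2.01-fold, and under 2-fold in the 5 other scalings), and the lower one Ttn, encoding titin (2.43-fold). Of the 7 genes for the partner E proteins and the inhibitory Id proteins of bHLH factors, Id3 was 2.12-fold higher, at 1843 in the Eed KO and 869.0 in the control, and the other 6 stayed within 2-fold. Under the other scalings 0 or 1 of these 7 were higher and 0 or 1 lower.

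Families differed in how many probe sets had the higher deposited signal in the Eed KO, whether or not they cleared the floor. It was higher for 12 of 15 T-box and 15 of 18 forkhead probe sets, against 14 of 24 Sox and 13 of 23 bHLH probe sets. Over all probe sets with a single symbol the share was 58.6%. The T-box and forkhead shares lay above that background, which is not matched for signal, and the Sox (58.3%) and bHLH (56.5%) shares lay near it. Under the other scalings the counts were 10 to 12 of 15 for T-box, 11 to 15 of 18 for forkhead, 11 to 14 of 24 for Sox and 9 to 12 of 23 for bHLH, while the background ran between 43.0% and 54.7%. All 3 Gata probe sets were higher under each scaling. Where both signals of a gene cleared the floor, the median log2 ratio as deposited was 0.44 for T-box (4 genes), 0.36 for Gata (2), 0.16 for forkhead (4), 0.64 for Sox (3) and 0.06 for bHLH (4). The Sox value is that of the main Sox21 probe set, and the other Sox21 probe set had a log2 ratio of -0.04. The forkhead value lies between Foxj1 and Foxl2, which both turned below 0 in 4 of the 5 other scalings, and the bHLH median over genes above the floor on at least 1 array was below 0 in all 5 (-0.29 to -0.01). Probe sets of a gene are not independent, and the difference between families was not tested.

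Genes of the same families outside the 48 were counted from a list of their names. That list was made with earlier results of these data known, so its shares cannot show an excess over all genes. Of 70 with a probe set 15 were at least 2-fold higher and 5 lower, against 8.15% and 2.48% of all genes, and 12 to 15 were higher and 6 to 9 lower under the other scalings. Of these 70 genes 42 were above the floor on both arrays, against 17 of the 47. Of 6 other T-box genes 3 were higher, among them Tbx3, a factor also active in ES cells, at 4038 in the Eed KO and 630.1 in the control (6.41-fold). Of 4 other Gata genes 3 were higher, the endoderm factor Gata6 at 341.1 in the Eed KO and 121.8 in the control (2.80-fold). Of 25 other forkhead genes 2 were higher and 1 lower. Of 10 other Sox genes 2 were higher, Sox17 (4.02-fold) and Sox7 (3.87-fold), and 1 lower, the neural factor Sox11, at 132.0 in the Eed KO and 806.1 in the control (6.11-fold). Gata6, Sox17 and Sox7 are on the primitive endoderm marker list, of which 7 of 12 were higher. Of 25 other bHLH genes 5 were higher and 3 lower. The higher ones included Twist2, a mesenchymal factor (373.8 in the Eed KO and 82.0 in the control, 4.56-fold), and Hand1, a paralog of Hand2 that acts in trophoblast and heart (702.2 in the Eed KO and 156.6 in the control, 4.48-fold). The lower ones were Neurod1, counted above as a neurogenin target, and the Olig3 paralogs Olig1 and Olig2. Twist2 is also on the fibroblast marker list and Hand1 on the trophoblast list, and the sums of both lists were higher in the Eed KO.

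Among genes acting downstream of vessel and mesenchyme forkhead factors 3 of 8 were higher and 0 lower, also under each other scaling. The shares of all genes as deposited were 8.15% and 2.48%. This list and those below were made with earlier results of these data known, so their shares cannot show an excess. Pdgfrb, the receptor of mural cells and fibroblasts, read 312.7 in the Eed KO and 63.6 in the control (4.92-fold). Vcam1, an adhesion molecule, read 393.7 in the Eed KO and 110.2 in the control (3.57-fold), and Flt1, a receptor for vascular endothelial growth factor, 346.0 in the Eed KO and 104.2 in the control (3.32-fold). Pdgfrb is also on the fibroblast marker list, whose summed signal was 46563 in the Eed KO and 19170 in the control, and the part of such cells was not tested. Among the remaining lists, set against the same shares, 1 of 6 segmentation genes downstream of the Mesp factors and Tbx6 was higher (Epha4, 5.64-fold) and 1 or 2 were lower under the other scalings, 1 of 9 cardiac targets of Tbx5, Tbx20, Gata5 and Hand2 was higher (Myl7, 2.49-fold), and 1 of 10 cilium targets of Foxj1 was lower (Ccdc40, 2.80-fold).

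How firmly the 6 calls stand depended on the scaling and the floor. Tbx15 and Foxc2 stayed past 2-fold in 9 of 10 alternatives, all except a floor at the 60th percentile (168.2). Of the signals of these 2 genes only that of Tbx15 in the Eed KO, 172.1, lies above that floor. Foxd1 did so in 6 of 10, Foxq1 in 4 and Tbx18 in 2. Foxf1 stayed at least 2-fold lower in 7 of 10, and averaging its probe sets gave the -0.12 above. Some alternatives could not change a call, so these tallies overstate its firmness. Dropping _x_at and _s_at probe sets left all 6 values as deposited, and averaging left those of Foxc2 and Foxd1, each with a single probe set. The floor at the 25th percentile left Tbx18, Foxq1 and Foxf1 as deposited, since both their signals lay above 61.3. The 2 alternatives in which Tbx18 stayed past 2-fold were both of this kind. Under quantile normalization, equal medians or lowess trend removal, 2 of the 47 genes were higher (Tbx15 and Foxc2) and 1 was lower (Foxf1).

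**Figure D3:**
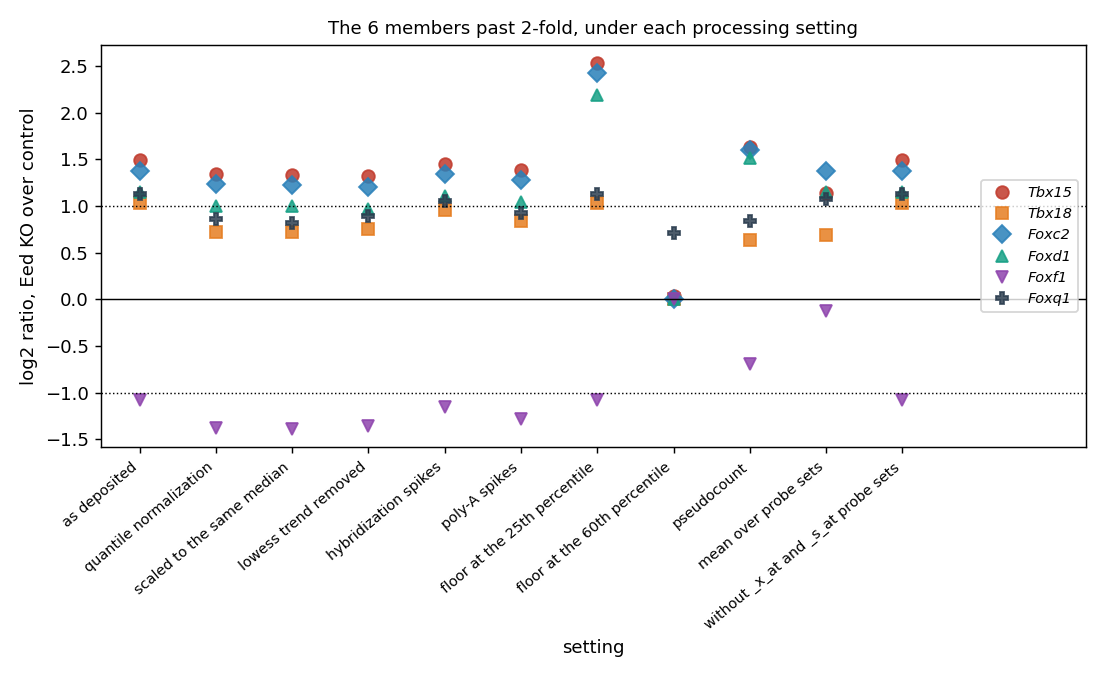
Log2 ratio, Eed KO over control, of the 6 genes past 2-fold as deposited (vertical axis) under the deposited scaling and 10 alternatives (horizontal axis), with dotted lines at 2-fold. Tbx15 and Foxc2 lie above the upper line in every setting except the floor at the 60th percentile, and Tbx18 lies between 0.64 and 0.96 in 7 of the others.

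**Figure D4:**
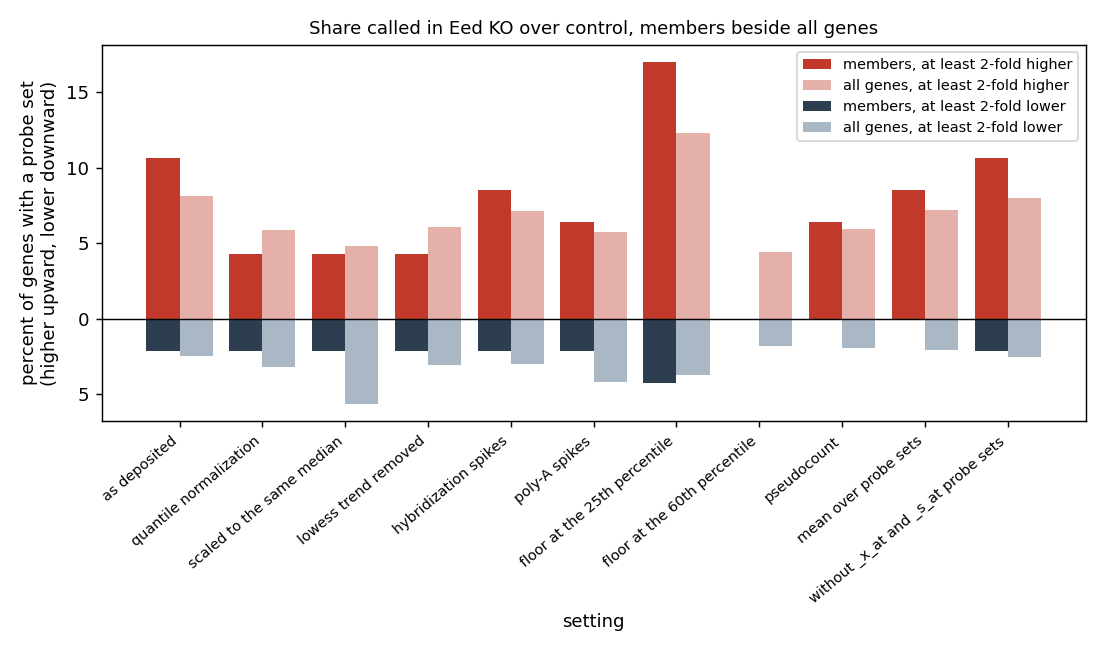
Percent of the 47 genes (dark bars) and of all genes with a probe set (pale bars) that were at least 2-fold higher (upward) or lower (downward) in the Eed KO under each setting. The higher share of the 47 genes lies above that of all genes as deposited (10.6% against 8.15%) and below it after quantile normalization (4.26% against 5.86%).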

How the data were processed

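RNA from 1 Eed KO and 1 control ES cell sample was hybridized to 2 arrays. The deposited values are MAS5 signals per probe set, an intensity on a linear scale, per the submitters' processing notes, with no version or detection calls in the table used here. The mean after trimming 2% at each end was 500.0 on both arrays, so they had been scaled before deposit. The number of arrays limits the precision.

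Groups came from the sample titles. Control probe sets were left out of the floor and of all counts. Ratios were computed with Python 3.11.15, numpy 2.4.6 and pandas 2.3.3, and the lowess trend (span 0.3) with statsmodels 0.14.6. With 1 array a group there was no test. The computation was tested on simulated data. The alternatives were 5 scalings (quantile, equal median, lowess, 18 hybridization spike and 24 poly-A spike probe sets), a lower floor (25th percentile) and a higher one (60th), the floor added as a pseudocount, averaging over all probe sets of a gene, dropping those marked _x_at or _s_at as shared, and limits of 1.5-fold and 3-fold for a call. The named genes are the 48, and from each further list at most 4 past 2-fold in each direction, plus the marker genes under the floor on both arrays. The 48 genes and all lists were chosen with earlier results of these data known. Protein sequences were not used here.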

Additional observations from a re-analysis of the deposited data

How the results depend on the processing

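Of the 47 genes, 5 were at least 2-fold higher and 1 lower as deposited. The higher count was 2 after quantile normalization, under equal medians and with the lowess trend removed, 3 with the poly-A spikes and with the pseudocount, 8 with the floor at the 25th percentile, 0 with it at the 60th, 9 for calls at 1.5-fold and 0 at 3-fold. The lower count was 2 for the 25th percentile floor and for calls at 1.5-fold, and 0 for the 60th percentile floor, with the pseudocount, as the mean over probe sets and for calls at 3-fold. At 1.5-fold 17.6% of all genes were higher and 7.77% lower. The median log2 ratio of all genes above the floor was 0.12 as deposited, 0.02 after quantile normalization, -0.16 with equal medians and -0.06 with the poly-A spikes. The median of the genes described here exceeded it by 0.18 as deposited, by 0.19 to 0.20 with equal medians and with either spike set, and by -0.00 and 0.00 (rounded) after quantile normalization and removal of the intensity trend. The equally dim genes above the floor had a median of 0.31 as deposited, beside 0.30 for the genes described here. Equal-median and spike scaling multiply an array by a single factor, which keeps a trend with intensity. Of 260 log2 ratios of 26 genes under 10 alternatives, 17 moved by more than the probe set SD, 15 of them under another floor, and 0 of the 6 called genes changed sign. Not all of these could move. Dropping _x_at and _s_at probe sets left all 26 values as deposited, and a gene with a single probe set keeps its value when averaged. Tbx15, Foxc2 and Foxd1 were under the floor in the control, so their floored ratios could not turn below 1. No paired analysis was possible because each group is 1 array. Signals near the floor limit all these values: only 4 of the 47 genes cleared a floor of 168.2.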
